A study of Homo sapiens with 8 samples.

Results

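Solute carrier genes encode the membrane proteins that move amino acids, sugars, ions, vitamins and metabolites into cells and between their compartments. In this series 70 of them carried enough signal to be described in N4-acetylcytidine RNA immunoprecipitation (acRIP) libraries of 143B and HOS, a pair of human osteosarcoma cell lines, out of 386 solute carrier symbols in the gene table and 140 with any peak. They were chosen by the level of their signal: a gene had to bear a symbol starting with SLC and a number, and the counts of the peaks assigned to it had to average 50 or more over the 4 libraries. Of all protein-coding genes, 6765 had a peak and 4101 reached that mean. The 70 genes held 209 of the 31395 peaks, and 27 of them held 1 peak each. By family they comprise 19 amino acid carriers, 6 glucose and sugar carriers, 20 ion carriers, 10 members of the mitochondrial family SLC25, 3 members of the nucleotide sugar family SLC35 and 12 of other families. 1 gene admitted by the rule, SLC30A4-AS1, has the symbol of an antisense gene and is not known as a carrier, although the gene table lists it as protein-coding. Just inside the minimum lay SLC6A11 (mean 53.5 counts), SLC45A1 (56.75) and SLC39A6 (58.5), and just outside it SLC30A8 (48.75), SLC44A5 (44.5) and SLC35F1 (43.75).

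The study compared control cells (NC) with cells labelled as NAT10 knockouts (sgNAT10) in both lines, of which 143B was derived from HOS. NAT10 is the enzyme known to write N4-acetylcytidine (ac4C) on RNA. The labels list 8 samples, an acRIP and an input library for each line and genotype. The 4 count columns used here hold 1 acRIP library each, so no group has a replicate within a line, and inputs were not analysed here. Whether the sgNAT10 cells were a clone or a pool is not given in the sources used here.

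Solute carriers work in fixed positions of cell metabolism. Plasma membrane carriers of the SLC1, SLC7 and SLC38 families bring amino acids into the cell, and some SLC7 carriers reach the membrane only when bound to the heavy chain SLC3A2 (CD98). SLC2 proteins let glucose pass down its gradient, SLC9 and SLC4 proteins exchange protons and bicarbonate and so set cell pH, SLC30 and SLC39 proteins move zinc and other metals, and SLC25 proteins link the cytosol with the mitochondrial matrix. Genes of amino acid uptake are textbook targets of the transcription factor ATF4, which binds amino acid response elements during amino acid shortage.

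The 4 libraries held 20107718 to 24785306 counts in peaks, which is not their sequencing depth. The library labelled sgNAT10 of 143B stood apart. Over the 70 carriers its Spearman correlations with the other libraries were 0.489 to 0.508, against 0.755 to 0.845 among those. Over all 31395 peaks they were 0.583 to 0.718 against 0.803 to 0.865, so this was not particular to carriers. The peak of NAT10 itself was not lower in both lines. It had 65 counts in 143B NC against 130 in 143B labelled sgNAT10, and 180 in HOS NC against 63 in HOS labelled sgNAT10, log2 differences of 0.50 (0.06 to 0.95) and -1.85 (-2.30 to -1.44). An acRIP count of the targeted gene does not measure editing, so every direction below is one between libraries as labelled. Of 12 mesenchymal and bone markers, 6 had peaks (VIM, COL5A1, COL6A1, SPARC, CD44 and RUNX2), and the others, COL1A1 and COL1A2 among them, had none. Of 9 markers of other cell types, 2 had a peak: PTPRC with 2 to 22 counts per library, and CDH1 with 5 to 30 counts in 3 libraries and 812 in HOS labelled sgNAT10. The part of this CDH1 signal in the carrier values was not tested. An acRIP count mixes the amount of an RNA with its enrichment, and in bulk samples fewer cells of a type and less RNA per cell cannot be told apart.

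Below, a shift is the log2 difference in normalised count (CPM, counts scaled to the total in peaks with TMM factors) of the library labelled sgNAT10 minus NC in the same line, with a 95% interval that covers counting error only. Because the libraries differ in total and composition, equal raw counts can give a shift away from 0. Other scalings added -0.09 to 0.34 to every shift in 143B and -0.27 to 0.58 in HOS. A shift is therefore called near 0 where at least 1 of the 5 scalings turns its sign.

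As a class, the carriers stood close to other genes. The median shift was -0.17 in 143B and -0.03 in HOS, beside -0.00 and -0.21 for all 4101 protein-coding genes. In 143B, 9 of 70 carriers were higher by 2-fold or more (background 15.9%) and 22 were lower by as much (background 23.5%). In HOS, 10 were higher (background 10.8%) and 13 lower (background 16.7%). Both lines showed the lower value in 21 carriers (background 26.3%) and the higher value in 15 (background 16.8%). By sign alone, 31 carriers were higher in 143B (background 49.9%) and 33 in HOS (background 40.5%). The lines differed in sign in the others: 16 carriers lay above 0 in 143B and below it in HOS (background 33.1%), and 18 the reverse (background 23.8%). With the demand that the sign hold under all 5 scalings, 13 carriers were lower in both lines (background 9.34%) and 11 higher in both (background 11.6%). Relative to TMM, library totals alone raised the carriers counted as higher in HOS from 33 to 45 of 70 (64.3%, beside 67.7% of all genes), and factors of the line alone lowered them to 21 of 70 (beside 29.8% of all genes).

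**Figure D1:**
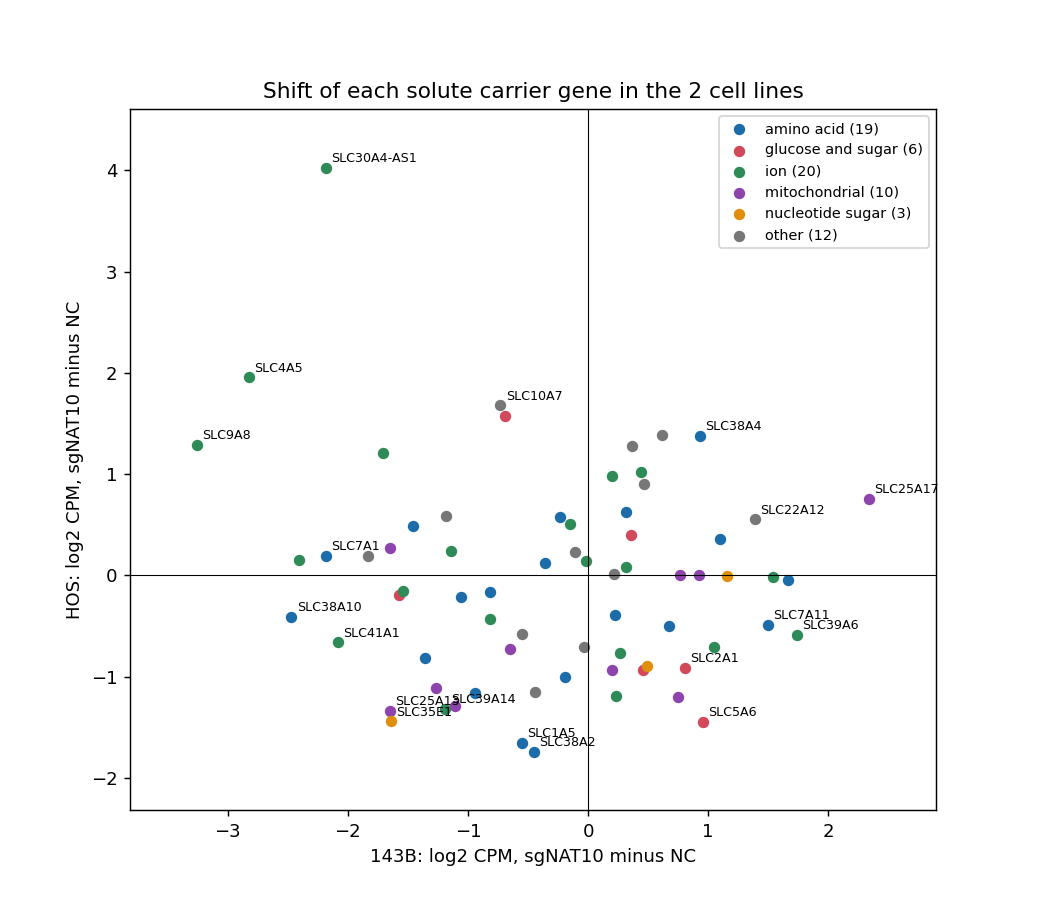
Each point is 1 of the 70 solute carrier genes, placed by its shift in 143B (x axis) and in HOS (y axis), both as log2 CPM of the library labelled sgNAT10 minus NC, coloured by class with the number of genes in the key. SLC30A4-AS1, SLC4A5 and SLC9A8 lie at the upper left (lower in 143B, higher in HOS), and SLC35E1, SLC25A13, SLC38A2 and SLC1A5 lie at the lower left (lower in both).

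No carrier passed the test of the genotype. The edgeR quasi-likelihood test with cell line as a block called 0 of 8152 genes at an adjusted p of 0.05 (background 0.0%), and 0 carriers. DESeq2 and limma-trend also called 0 carriers. At an unadjusted p under 0.05 there were 315 genes (3.86%), of which 2 are carriers. With 1 residual degree of freedom only very large changes could have been called: on simulated counts for the genotype change over 8152 genes this test recovered 0% of genes changed by 2-fold, 6% at 4-fold, 46% at 8-fold and 78% at 16-fold. The folds and shifts that follow are therefore descriptions of these libraries.

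The classes differed in where their medians lay. The amino acid carriers had medians of -0.36 in 143B and -0.21 in HOS, with 7 of 19 higher in each line (background 49.9% in 143B and 40.5% in HOS), and the HOS median was that of all genes. The glucose and sugar carriers had medians of 0.41 and -0.55, the ion carriers -0.48 and 0.12, and the SLC25 family -0.23 and -0.83. A scaling factor adds the same amount to every gene, so the distance of a class from the median of all genes does not depend on it. In HOS, the SLC25 family and the glucose carriers lay below that median and the ion carriers above it. In 143B, the amino acid, ion and SLC25 classes lay below it and the glucose carriers above. Without SLC30A4-AS1 the ion class had medians of -0.15 in 143B and 0.09 in HOS, and 8 of its 19 genes were lower in 143B by 2-fold or more. Each class spans both signs in both lines except the 3 SLC35 genes, none of which was higher in HOS, SLC35F3 being near 0. No test of these classes against each other was made.

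**Figure D2:**
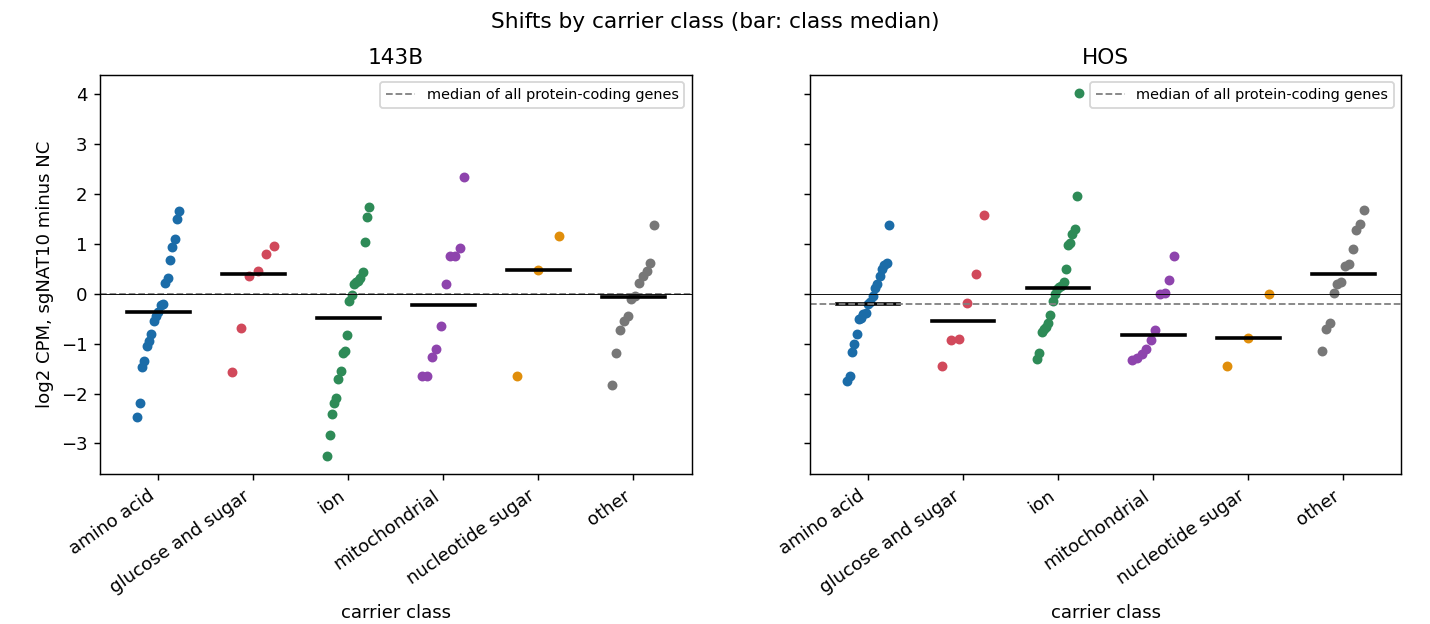
Points are single genes and bars class medians of the shift (log2 CPM of the library labelled sgNAT10 minus NC, y axis) for 6 carrier classes in 143B (left) and HOS (right), with the median of all protein-coding genes as a dashed line. The SLC25 median in HOS (-0.83) lies below the dashed line (-0.21), and within every class of 6 or more genes the points reach from below to above 0.

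Among the amino acid carriers, SLC38A2, SLC1A5, SLC38A1 and SLC3A2 were lower in both lines under all 5 scalings. SLC38A2 (SNAT2), which takes up small neutral amino acids with sodium, had 703 counts in 143B NC against 725 in 143B labelled sgNAT10, and 2207 in HOS NC against 843 in HOS labelled sgNAT10. Its shift was -0.45 (-0.61 to -0.30) in 143B and -1.74 (-1.86 to -1.62) in HOS. SLC1A5 (ASCT2), the exchanger through which many tumour cells take up glutamine, had 392 against 377 counts in 143B and 1596 against 647 in HOS. HOS NC was the highest of the 4 libraries for both genes. The shift of SLC1A5 was -0.55 (-0.76 to -0.35) in 143B and -1.65 (-1.79 to -1.52) in HOS. SLC38A1 (SNAT1), a relative of SLC38A2, had 148 against 108 counts in 143B and 407 against 231 in HOS, with shifts of -0.94 (-1.32 to -0.58) and -1.16 (-1.41 to -0.93).

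SLC3A2 and its light chains did not share a direction. The heavy chain SLC3A2 had 228 counts in 143B NC against 125 in 143B labelled sgNAT10, and 741 against 538 in HOS, which gave shifts of -1.36 (-1.69 to -1.04) and -0.81 (-0.98 to -0.65). SLC7A5 (LAT1), the light chain that imports leucine and other large neutral amino acids, had 378 against 416 counts in 143B and 587 against 814 in HOS. Its shift was -0.36 (-0.56 to -0.16) in 143B and near 0 in HOS, at 0.12 (-0.03 to 0.28). SLC7A11 (xCT), the light chain that imports cystine for glutathione synthesis, had 13 against 54 counts in 143B and 144 against 131 in HOS. Its shift was 1.49 (0.66 to 2.55) in 143B and near 0 in HOS, at -0.48 (-0.84 to -0.14). So in 143B the heavy chain and the cystine carrier lay on opposite sides of 0, and the 143B NC count of the latter was the lowest of any carrier in that library.

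The core letters of the amino acid response element, TGATGNAA, were searched on both strands of RefSeq promoter windows (250 bases before to 50 after a gene start, GRCh38.p14). A window held them for 4 amino acid carriers: SLC1A5, SLC38A1, SLC3A2 and SLC7A1. The stretches are shown because the first 3 of these are among the 4 amino acid carriers lower in both lines under all 5 scalings. With TMM alone, 8 of 19 amino acid carriers were lower in both. The core letters are in capitals.
SLC1A5, chr19:46784892-46784971, minus strand: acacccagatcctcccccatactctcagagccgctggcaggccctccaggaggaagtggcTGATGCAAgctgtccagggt
SLC38A1, chr12:46266501-46266580, minus strand: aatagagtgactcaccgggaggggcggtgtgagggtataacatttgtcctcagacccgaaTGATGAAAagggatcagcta
SLC3A2, chr11:62881714-62881743, plus strand: ctgaagtaatgtgcaggactccTTACATCA
SLC7A1, chr13:29595662-29595741, minus strand: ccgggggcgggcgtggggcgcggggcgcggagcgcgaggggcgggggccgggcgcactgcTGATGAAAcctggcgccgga
In SLC3A2 the letters lie on the other strand. For SLC1A5, SLC38A1 and SLC3A2 the window belongs to a start inside the gene span. These genes have other windows as well, which held no match. Of the 55 carriers with an entry in the promoter table, 8 held the core in a window, beside 4.46% of all 27305 genes. Among them were 4 of 15 amino acid carriers. By window, 8 of 69 carrier windows held it, beside 3.62% of all 35116 windows. SLC38A2, whose promoter window is in the table, held no match. The motif was 1 of 7 searched and was chosen after the values were seen, so these shares describe letters and no site. The SLC1A5 peak (chr19:46787512-46787692) overlapped another start window of that gene by 32 bases.

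The largest counts of any carriers belonged to SLC38A10 and SLC7A1. SLC38A10, a member of the SLC38 family found on intracellular membranes, had 6201 counts in 143B NC against 1580 in 143B labelled sgNAT10, and 11653 against 11209 in HOS. Its shift was -2.47 (-2.55 to -2.39) in 143B and near 0 in HOS, at -0.41 (-0.44 to -0.37). SLC7A1 (CAT1), the main carrier of arginine and lysine in many cells, had 4411 against 1369 counts in 143B and 6057 against 8847 in HOS. The 143B library labelled sgNAT10 was the lowest of the 4 for both genes. SLC7A1 shifted by -2.18 (-2.27 to -2.10) in 143B and was near 0 in HOS, at 0.20 (0.15 to 0.24).

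The SLC6 genes, carriers of neurotransmitters, taurine, creatine and betaine, had medians above those of the other amino acid carriers. Their median shift was 0.27 in 143B and 0.16 in HOS over 6 genes, against -0.45 and -0.48 over the other 13. SLC6A12, which moves betaine and GABA, had 74 counts in 143B NC against 334 in 143B labelled sgNAT10, and 38 against 47 in HOS. Its shift was 1.66 (1.31 to 2.06) in 143B and near 0 in HOS. SLC6A20, a proline carrier, had 66 against 201 counts in 143B and 26 against 43 in HOS, and SLC6A11, a GABA carrier, 60 against 106 and 16 against 32. The shifts of SLC6A20 were 1.10 (0.70 to 1.53) in 143B and 0.36 (-0.36 to 1.14) in HOS. Those of SLC6A11 were 0.32 (-0.15 to 0.80) and 0.62 (-0.26 to 1.61), so 3 of these 4 intervals include 0. SLC6A6 had 78 against 129 counts in 143B and 96 against 93 in HOS. Its shift was 0.23 in 143B and near 0 in HOS, at -0.39. SLC6A4, the SLC6 gene of highest mean count, and SLC6A8, the creatine carrier, were lower in 143B. SLC6A4 had 545 against 437 counts in 143B and 370 against 420 in HOS. Its shift was -0.81 in 143B and near 0 in HOS, at -0.17. SLC6A8 had 179 against 91 counts in 143B and 167 against 300 in HOS, with shifts of -1.46 (-1.85 to -1.10) and 0.49 (0.22 to 0.78). Near-identical copies of SLC6A8 exist in the genome and how multiply mapped reads were counted is not given, so its counts are uncertain. SLC38A4, an SLC38 carrier best known from liver, was the amino acid carrier with the highest fitted genotype change among those with the same sign in both lines, at a log2 fold change of 1.17 (SE 0.63). It had 36 against 98 counts in 143B and 23 against 78 in HOS.

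**Figure D3:**
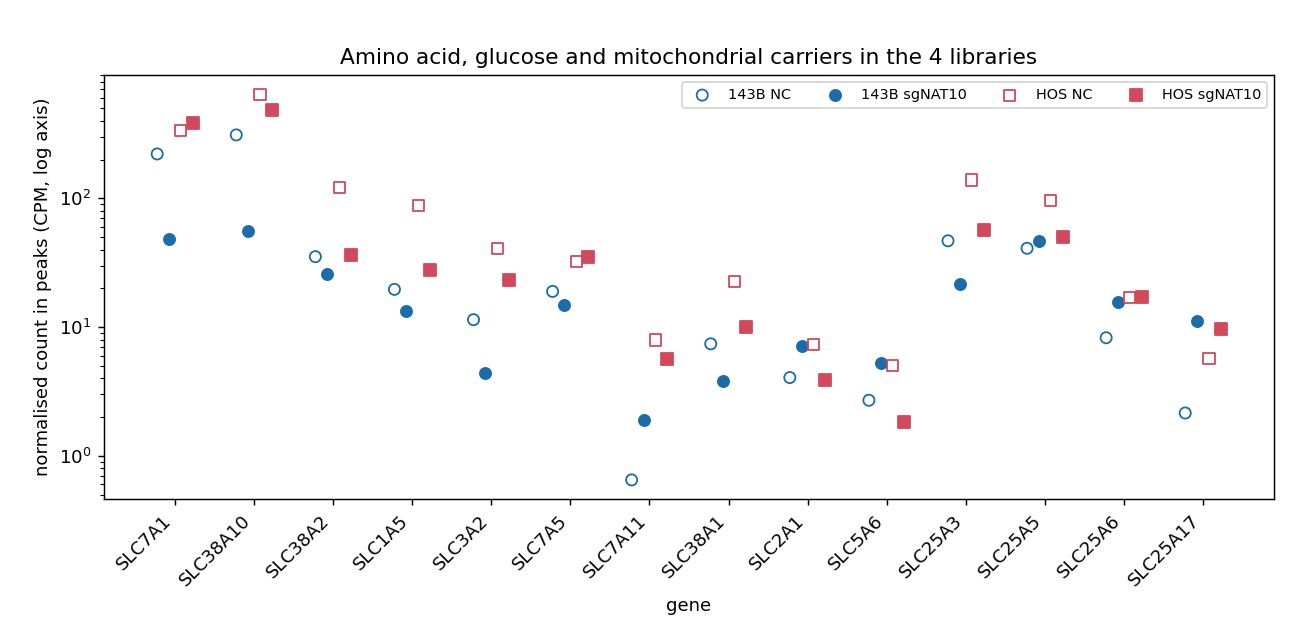
Normalised counts in peaks (CPM, log axis) of 14 amino acid, glucose and mitochondrial carriers in each library; circles are 143B, squares HOS, open symbols NC and filled symbols the libraries labelled sgNAT10. SLC38A2, SLC1A5, SLC3A2 and SLC25A3 show their highest value in HOS NC, and SLC7A11 its lowest in 143B NC.

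The glucose carrier SLC2A1 (GLUT1), the main route of glucose uptake in most dividing cells, went opposite ways in the lines. It had 81 counts in 143B NC against 201 in 143B labelled sgNAT10, and 132 against 89 in HOS, with shifts of 0.81 (0.43 to 1.20) and -0.91 (-1.32 to -0.52). SLC2A10, a glucose carrier family member whose loss affects connective tissue, had 115 against 209 counts in 143B and 80 against 135 in HOS. Its shifts of 0.36 (0.03 to 0.70) and 0.40 (-0.01 to 0.82) had the same sign, and the HOS interval includes 0. SLC2A13, a carrier of myo-inositol, followed SLC2A1, with shifts of 0.45 (-0.04 to 0.97) and -0.93 (-1.57 to -0.34). SLC5A6 belongs to the sodium-glucose family but carries the vitamins biotin and pantothenate. It had 54 against 149 counts in 143B and 91 against 42 in HOS, and with shifts of 0.95 (0.51 to 1.44) and -1.44 (-2.03 to -0.92) it had the largest difference between the lines on the side of 143B. SLC37A3, a member of the sugar phosphate family located to lysosomes, had 101 against 47 counts in 143B and 77 against 86 in HOS. SLC45A1, a proton-coupled sugar carrier, had 69 against 60 and 20 against 78, with shifts of -0.69 (-1.22 to -0.18) and 1.57 (0.89 to 2.40).

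Among the ion carriers, the sodium/proton exchangers SLC9A8 and SLC9A3 were lower in 143B labelled sgNAT10 and higher in HOS labelled sgNAT10, and SLC9A9 was near 0 in both lines. SLC9A8, an exchanger of the Golgi and endosomes, had 386 counts in 143B NC against 56 in 143B labelled sgNAT10, and 163 against 511 in HOS. Its shifts of -3.25 (-3.71 to -2.88) and 1.29 (1.04 to 1.56) include the lowest value of any carrier in 143B. SLC9A3, the exchanger of gut and kidney epithelium, had 236 against 101 counts in 143B and 27 against 81 in HOS, with shifts of -1.71 (-2.07 to -1.38) and 1.21 (0.59 to 1.92). SLC9A9, an endosomal exchanger, had 306 against 427 and 192 against 271 counts.

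The bicarbonate carriers split. SLC4A5, a sodium bicarbonate cotransporter, had 176 counts in 143B NC against 34 in 143B labelled sgNAT10, and 168 against 836 in HOS, with shifts of -2.82 (-3.44 to -2.33) and 1.96 (1.72 to 2.21). SLC4A7, which also brings in bicarbonate with sodium, did the reverse: it had 51 against 150 counts in 143B and 67 against 52 in HOS, with shifts of 1.05 (0.59 to 1.55) and -0.71 (-1.27 to -0.17). SLC4A10 was higher in both lines, with shifts of 0.20 (-0.18 to 0.59) and 0.98 (0.43 to 1.58). In 4 of 70 carriers the shift was 2-fold or more downward in 143B and 2-fold or more upward in HOS, near the background of 5.0%. They were all placed in the ion class: SLC30A4-AS1, SLC4A5, SLC9A8 and SLC9A3. Without SLC30A4-AS1, which is not known as a carrier, that class held 3 among 19 genes. SLC30A4-AS1 had 244 counts in 143B NC against 75 in 143B labelled sgNAT10, and 222 against 4635 in HOS. The last of these stands alone, and its shift in HOS was 4.03 (3.84 to 4.23).

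Of the 5 metal carriers, 2 lay above 0 in 143B (background 49.9%) and 1, SLC39A11, in HOS (background 40.5%), where it and SLC30A7 were near 0. SLC39A14 (ZIP14), an importer of zinc, iron and manganese, had 190 counts in 143B NC against 117 in 143B labelled sgNAT10, and 481 against 246 in HOS. With shifts of -1.19 (-1.54 to -0.86) and -1.31 (-1.55 to -1.09) it was lower by more than 2-fold in both lines. SLC41A1, which moves magnesium, had 219 against 72 counts in 143B and 232 against 187 in HOS, with shifts of -2.08 (-2.51 to -1.71) and -0.66 (-0.95 to -0.38). SLC30A7, which loads zinc into the Golgi, was lower in 143B at -0.82 (-1.33 to -0.33), and had 87 against 82 counts in HOS. SLC39A6 (ZIP6), a zinc importer, went the other way in 143B, with 24 against 116 counts and a shift of 1.74 (1.13 to 2.47), and had 51 against 43 counts in HOS with a shift of -0.59 (-1.22 to 0.02). SLC20A1, a sodium-phosphate cotransporter, was the ion carrier of highest count after SLC30A4-AS1. It had 377 against 627 counts in 143B and 915 against 511 in HOS, with shifts of 0.24 (0.05 to 0.42) and -1.19 (-1.35 to -1.03).

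In the SLC25 family, 4 of 10 genes were lower in both lines under all 5 scalings (background 9.34%): SLC25A3, SLC25A11, SLC25A13 and SLC25A37. SLC25A3, which brings phosphate into the matrix for ATP synthesis, had 934 counts in 143B NC against 611 in 143B labelled sgNAT10, and 2511 against 1309 in HOS. Its shifts were -1.11 (-1.26 to -0.96) and -1.29 (-1.39 to -1.19). SLC25A11, the oxoglutarate-malate carrier, had 144 against 84 counts in 143B and 275 against 162 in HOS, with shifts of -1.26 (-1.68 to -0.88) and -1.11 (-1.40 to -0.83). SLC25A13 (citrin), the aspartate-glutamate carrier that works with it in the malate-aspartate shuttle, had 42 against 18 and 118 against 59 counts. The fitted genotype change of SLC25A13 was -1.52 (SE 0.65), with an unadjusted edgeR p of 0.0358 and an adjusted p of 0.985. With TMM factors, SLC25A3, SLC25A11, SLC25A13, SLC39A14 and SLC35E1 were the 5 carriers lower by 2-fold or more in both lines (background 2.12%). That count depends on the scaling, since library totals alone add 0.58 to every HOS shift. SLC25A37 (mitoferrin-1), which imports iron, had shifts of -0.65 (-0.96 to -0.36) and -0.72 (-0.96 to -0.49).

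The adenine nucleotide carriers differed from these. SLC25A5 (ANT2), which exchanges ADP for ATP, had 817 counts in 143B NC against 1326 in 143B labelled sgNAT10, and 1741 against 1166 in HOS, with shifts of 0.20 (0.07 to 0.33) and -0.93 (-1.04 to -0.82). Its paralog SLC25A6 (ANT3) had 165 against 443 and 307 against 393 counts, with a shift of 0.92 (0.67 to 1.19) in 143B and one near 0 in HOS. The pair are nearly alike in sequence and SLC25A5 has processed copies, so the split of reads between them is uncertain. SLC25A23, an ATP-Mg/phosphate carrier, had 311 against 139 counts in 143B and 313 against 483 in HOS, and was lower in 143B at -1.65 (-1.96 to -1.37). SLC25A38, which carries glycine for haem synthesis, had 43 against 103 and 95 against 52 counts, with shifts of 0.75 (0.24 to 1.31) and -1.20 (-1.74 to -0.72). SLC25A17 has the SLC25 fold but is a peroxisomal carrier of cofactors. With 43 counts in 143B NC against 312 in 143B labelled sgNAT10, and 103 against 223 in HOS, it was higher in both libraries labelled sgNAT10 than in either NC library. Its shifts were 2.34 (1.90 to 2.86) and 0.76 (0.42 to 1.11). Its fitted genotype change was 1.55 (SE 0.79), the highest of any carrier with the same sign in both lines. SLC25A5, SLC25A6 and SLC25A38 have their only peak at the gene finish. Of finish peaks of all protein-coding genes, 85.2% lay above NC in 143B, and 14.8% did in HOS. The largest peaks of SLC25A3, SLC25A11, SLC25A13, SLC25A23 and SLC25A17 are narrow ones inside the gene. Of such peaks, 30.5% lay above NC in 143B, and 35.6% did in HOS. The part of peak position in the contrast between these carriers was not tested.

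SLC35E1, an orphan of the nucleotide sugar family, had the lowest fitted genotype change of all carriers with the same sign in both lines. It had 97 counts in 143B NC against 43 in 143B labelled sgNAT10, and 180 against 84 in HOS, with a log2 fold change of -1.56 (SE 0.69, unadjusted edgeR p 0.0403, adjusted p 0.985). Its family members SLC35F3, a thiamine carrier, and SLC35F2 were higher in 143B, with shifts of 1.15 (0.85 to 1.47) and 0.49 (0.08 to 0.92). In HOS, SLC35F2 was lower at -0.89 (-1.27 to -0.53). Among other families, SLC16A1 (MCT1), which carries lactate and pyruvate, had 411 against 567 counts in 143B and 623 against 486 in HOS. Its shift was near 0 in 143B and -0.71 (-0.88 to -0.54) in HOS. SLC19A1, the reduced folate carrier, had 575 against 227 counts in 143B and 587 against 857 in HOS, and was lower in 143B at -1.83 (-2.07 to -1.61). SLC10A7 had 516 against 439 and 491 against 2010 counts, with a HOS shift of 1.68 (1.54 to 1.83).

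Some carriers known chiefly from other organs gave counts as well. SLC17A7, the vesicular glutamate carrier of neurons, had 841 counts in 143B NC against 1379 in 143B labelled sgNAT10, and 643 against 829 in HOS, all in 1 peak of 197 bases. SLC22A12, the urate carrier of the kidney, had 216 against 799 counts in 143B and 86 against 162 in HOS, in 1 peak of 1856 bases. Its shifts were 1.39 (1.17 to 1.61) and 0.56 (0.18 to 0.96). SLC16A12 and SLC22A15 were also higher in both, with fitted genotype changes of 1.01 (SE 0.67) and 0.83 (SE 0.68). A peak here is an interval inside a gene span, and exons were not used here, so these counts do not show that the mature transcript was present.

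Compared per length, as normalised count per kilobase of peak, SLC17A7 had the highest level in both 143B libraries, SLC1A5 in HOS NC and SLC25A5 in HOS labelled sgNAT10. SLC17A7 reached 213.8 CPM per kb in 143B NC against 248.3 in 143B labelled sgNAT10, and 180.2 against 182.1 in HOS. SLC25A5 reached 170.5 CPM per kb in 143B NC against 196 in 143B labelled sgNAT10, and 400.5 against 210.3 in HOS. SLC1A5 reached 109 against 74.3 CPM per kb in 143B and 489.5 against 156 in HOS. SLC38A10, first by raw counts, reached 46.0 against 8.3 CPM per kb in 143B and 95.3 against 71.9 in HOS. The order of genes by counts and by counts per length thus differs, and the single library of each group gives no spread by which neighbours could be told apart.

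Between the cell lines, 47 of 70 carriers had a higher fitted level in HOS than in 143B (background 70.8%). By class this held for 9 of 10 SLC25 genes, 12 of 19 amino acid carriers, 15 of 20 ion carriers and 1 of 6 glucose carriers. No carrier passed the edgeR test of the line with genotype as a block, which called 1 of 8152 genes (background 0.0123%), and 7 carriers had an unadjusted p under 0.05 (background 6.35%). SLC7A11 had the smallest unadjusted p, with a log2 fold change of 2.53 (SE 0.78, unadjusted edgeR p 0.00611, adjusted p 0.763). SLC3A2 followed the same direction at 2.11 (SE 0.88), SLC38A10 at 2.08 (SE 1.01) and SLC4A5 at 2.46 (SE 1.35). SLC30A4-AS1 had the highest value, 3.11 (SE 1.83), with the largest error. On the side of 143B stood SLC6A12 at -1.69 (SE 0.76), SLC22A12 at -1.60 (SE 0.83), SLC6A11 at -1.59 (SE 0.63), SLC6A20 at -1.58 (SE 0.68) and SLC9A3 at -1.48 (SE 0.88).

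The position of a peak in its gene went with its shift. Strand was known for 55 carriers, so peaks with a mean of 50 or more were sorted into those within 500 bases of the gene start, those within 500 bases of its finish, and inner peaks under or over 300 bases wide. All 9 carrier peaks at a finish were higher in 143B labelled sgNAT10, with a median of 0.92 (background 85.2% higher, median 0.81), although the one in SLC38A10 was near 0. In HOS 3 of the 9 were higher, in SLC25A6, SLC38A10 and SLC7A5, all near 0, and the median was -0.93 (background 14.8%). Of 48 narrow inner peaks in 29 genes, 8 were higher in 143B, with a median of -1.19 (background 30.5%), and 15 in HOS (background 35.6%). Of 30 wide inner peaks in 13 genes, 3 were higher in 143B, with a median of -2.00 (background 14.7%), and 26 in HOS, with a median of 0.51 (background 80.8%). Both start peaks, in SLC35E1 and SLC6A8, were lower in 143B. In 143B carrier peaks and peaks of all genes had the same order of medians by position, from finish through narrow inner and start to wide inner. Without SLC7A1 and SLC38A10 the carrier medians in 143B were 0.94 at a finish, -0.99 for narrow inner peaks, -1.43 for wide inner peaks and -1.58 for the 2 start peaks, so the last positions changed places. Peaks of 1 gene share their transcript and are not repeats of a condition.

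**Figure D4:**
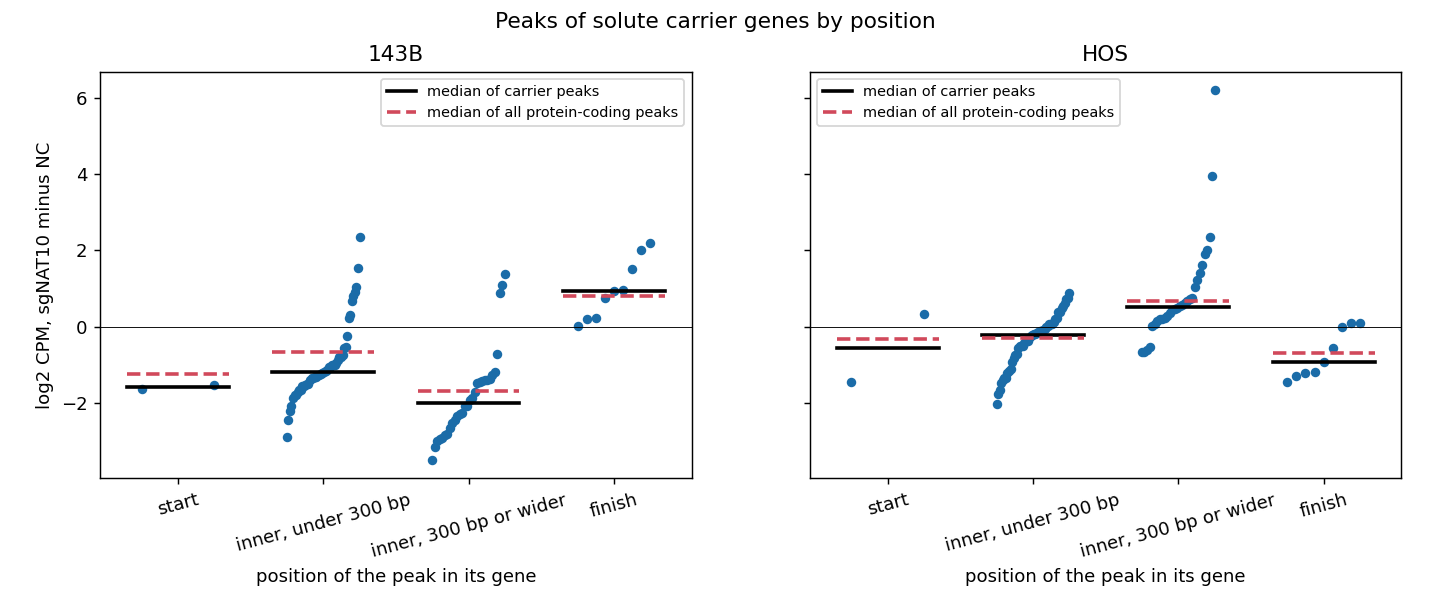
Points are peaks of solute carrier genes whose mean count reached 50, by position in the gene, with the shift (log2 CPM of the library labelled sgNAT10 minus NC) in 143B (left) and HOS (right); black bars are medians of carrier peaks and dashed red bars medians of peaks of all protein-coding genes. In 143B all 9 finish peaks lie above 0 and 27 of 30 wide inner peaks below it, while in HOS 26 of the wide inner peaks lie above 0.

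In 143B the finish peak had a higher shift than the inner peaks together in each of the 4 genes with both. In SLC38A2 (chr12:46358188-46372773, minus strand) the peak at the finish had 54 counts in 143B NC against 310 in 143B labelled sgNAT10, and 97 against 50 in HOS. The peak nearest its start had 229 against 162 counts in 143B and 771 against 241 in HOS. Within 143B the finish peak was higher in the library labelled sgNAT10, with a shift of 2.01, and the other 3 peaks were lower, so the gene's sum hides a difference of 2.997 between finish and rest; in HOS that difference was 0.46. SLC20A1 showed a difference of 2.06 in 143B and 0.84 in HOS, SLC38A10 2.003 and -0.22, and SLC7A5 1.78 and -0.02. In SLC7A5 the finish peak had 201 against 332 counts in 143B and the inner peak 177 against 84. The part of this position pattern in the class medians was not tested.

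Wide peaks held more counts than all other peaks together in 16 carriers, and 51 carriers had none. The median shift of the 16 was -1.59 in 143B and 0.45 in HOS, and the 51 had medians of 0.20 and -0.48. Of the 16, 4 were higher in 143B (background 49.9%) and 13 in HOS (background 40.5%). Counted by peak, 14.7% of wide inner peaks of all protein-coding genes were higher in 143B and 80.8% in HOS, so this direction is common to wide peaks. SLC30A4-AS1, SLC4A5, SLC9A8 and SLC9A3, the 4 genes of opposite 2-fold shifts, are all among the 16, with 93.9%, 92.5%, 89.1% and 59.8% of their counts in wide peaks. For SLC9A3 that share was 61.4% in 143B NC against 83.2% in 143B labelled sgNAT10, but 33.3% against 34.6% in HOS. SLC22A12, SLC6A20 and SLC2A10 are as well and were higher in both lines. SLC7A1 (chr13:29509414-29595688, minus strand) carried 24 peaks of 104 to 2346 bases. All 24 were lower in 143B labelled sgNAT10, with shifts of -3.15 to -1.13, and in HOS 12 were higher and 12 lower, from -0.75 to 0.76, a split that moves with the scaling. Its 13 narrow peaks had 66 to 195 counts in 143B NC (median 85) against 30 to 113 in 143B labelled sgNAT10 (median 36), and 140 to 409 (median 163) against 148 to 310 (median 172) in HOS. SLC38A10 (chr17:81244811-81295307, minus strand) held 7 such peaks, of which the 4 wide ones had 96.5% of its counts, and all began at most 8844 bases from its finish. Its finish peak, with 64 against 92 counts in 143B, had a shift of 0.03 where the wide peaks had -2.94 to -1.87. SLC25A23 had 3 narrow peaks with shifts of -2.43 to -1.01 in 143B and 0.07 to 0.54 in HOS. SLC19A1 had 5 peaks with a mean of 50 or more, 3 of them wide. In HOS 2 wide ones were higher by 2.34 and 2.01, and the remaining wide peak and both narrow ones were lower.

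**Figure D5:**
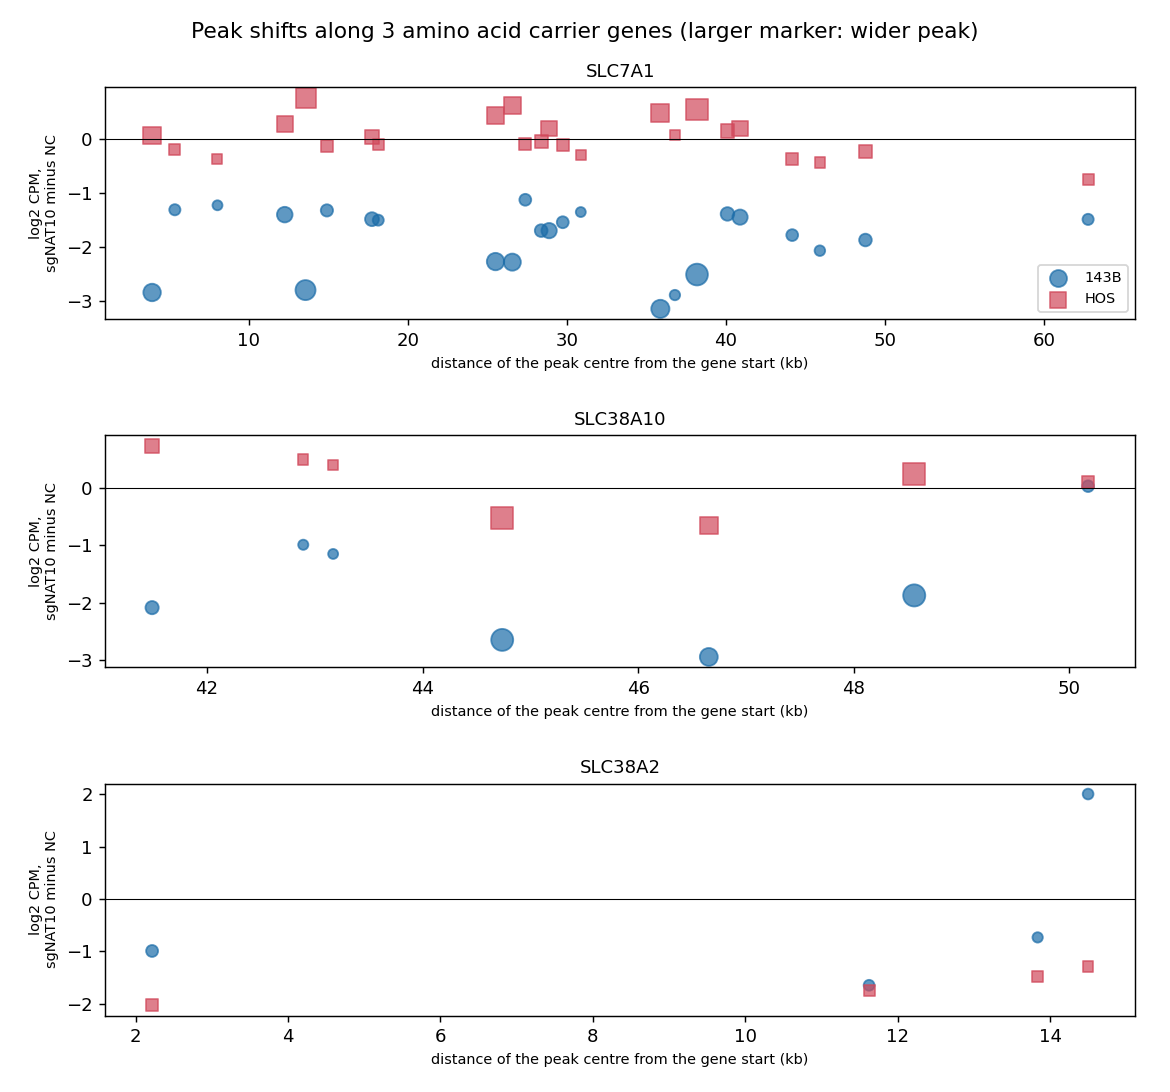
Peaks with a mean of 50 or more along SLC7A1, SLC38A10 and SLC38A2, by distance of the peak centre from the gene start (kb, x axis) and shift (log2 CPM of the library labelled sgNAT10 minus NC, y axis), circles for 143B and squares for HOS, larger markers for wider peaks. In 143B all SLC7A1 peaks lie between -3.15 and -1.13, and the SLC38A2 peak at the finish lies at 2.01 while the other 3 lie below 0.

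Tested singly, no carrier peak passed either: of 172 carrier peaks tested with edgeR among 24467 peaks, 0 were called (background 0.0%), and 5 had an unadjusted p under 0.05 (background 3.86%). DESeq2 and limma-trend called 0 carrier peaks as well. Among the 5 were 2 peaks of SLC38A10 and 1 of SLC38A4, named for their p after it was seen.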

How the data were processed

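The values used are counts: raw read counts per peak interval in 1 table per cell line, as deposited by the authors, on GRCh38 per the submitters' processing notes, which name FastQC, STAR, SAMtools and deepTools without roles. Peak caller, counting tool, strand setting and handling of multiply mapped reads are not given in the sources used here. Column names give line and genotype but no assay and were taken as acRIP from the tables' naming. Peaks were assigned to the single protein-coding gene they overlapped (otherwise the single gene of any kind) and summed per gene. Peak positions are those of the tables, which may count from 0 or 1. Promoters are RefSeq windows.

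Gene sums and peaks were tested with edgeR 4.0.16 (R 4.3.3; quasi-likelihood, TMM, filterByExpr with minimum count 10 and total 15, Benjamini-Hochberg, threshold 0.05), with the other factor as a block. The cell line pairs NC with sgNAT10. DESeq2 1.42.0 and limma 3.58.1 were alternatives. The 2 lines are the only repeats of a genotype, so p-values of genotype measure the spread between them. In the test of the line the 2 genotypes are the only repeats, and p-values measure the spread between those. Shifts within a line used a prior count of 1 and exact conditional binomial intervals, with no test; reads are not independent molecules. The test was tested on simulated data. The 70 genes, the classes and the rules were chosen with earlier results of these data known. Genes were named by rule: the 4 of highest mean count per class, the 5 highest and lowest by genotype change with 1 sign in both lines, by difference between lines in shift, and by cell line, plus genes with 3 or more peaks of mean 50; others were named after their values were seen. Some results the rule would name are not reported here.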

Additional observations from a re-analysis of the deposited data

Results flagged for a closer look

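For these genes the library labelled sgNAT10 lay above NC in one line and below it in the other, and they were among those with the largest differences in shift between the lines. With 1 library per line and genotype the difference was not tested for any of them. The shift in 143B minus the shift in HOS was -6.21 for SLC30A4-AS1, -4.78 for SLC4A5, -4.55 for SLC9A8 and -2.92 for SLC9A3. On the other side it was 2.40 for SLC5A6, 2.32 for SLC39A6, 1.98 for SLC7A11, 1.95 for SLC25A38 and 1.75 for SLC4A7. For SLC7A11 the sign in HOS turns under another scaling. SLC30A4-AS1, SLC4A5 and SLC9A8 have most of their counts in peaks of 300 bases or more in each library, SLC9A3 only in those of 143B. SLC5A6 and SLC25A38 have theirs in 1 peak at the gene finish. Among wide inner peaks of all protein-coding genes, 71.7% fell below NC in 143B but rose above it in HOS. Among finish peaks of all protein-coding genes, 76.7% had the reverse pair of signs. Opposite signs are therefore common for these kinds of peak. The shares count signs and not the size of a difference. SLC39A6, SLC7A11 and SLC4A7 had no count in wide peaks. The only peak of SLC4A7 is a narrow inner one, and 20.5% of such peaks of all protein-coding genes had its pair of signs. The part of the kind of peak in these differences was not tested.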

How the results depend on the processing

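The carriers named as the 5 highest and 5 lowest by genotype change or by cell line kept the sign of that fitted change. This held under another scaling, tool, filter, block or peak assignment. It does not extend to carriers named for other reasons, some with fitted genotype changes near 0, such as -0.05 for SLC2A1 and -0.12 for SLC7A5. With 1 line left out there is only a value, the shift of the other line, and since the genes named for genotype were chosen for having the same sign in both lines that sign was fixed: SLC38A10 then ranged from -2.47 to -0.41. Without the replicate block 0 genes and 0 peaks were called for genotype and 5 genes for line, in each case 0 carriers. Genes called for genotype numbered 1 with a mean of 50 or more and 1 with a mean of 100 or more. Genes called for line numbered 0 with DESeq2-type factors, 4 with DESeq2, 0 with limma-trend and 0 with a mean of 50 or more, against 1. Peaks called for genotype numbered 52 of the 9655 with a mean of 50 or more, against 0 of 24467. Of these 52, 7 were higher, 45 lower and 0 of carriers. The cause was not tested.

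Class medians, given here minus the median of all protein-coding genes, moved as follows. Near gene ends the values in HOS were 0.71 for amino acid carriers, -0.31 for SLC25 and -0.29 for all carriers, and 0.85 in 143B for the ion class (1 gene); away from ends SLC25 in 143B was -0.73. Wide peaks alone gave 2.22 and 0.19 for glucose carriers (1 gene), and narrow peaks alone 0.17 for ion carriers in 143B. Without SLC6 the amino acid class was -0.27 in HOS. Metals alone, 6 genes with SLC30A4-AS1, gave -0.999 in 143B and -0.30 in HOS; without that gene the medians themselves were -0.82 and -0.59. A mean of 20 or more gave -0.23 for glucose carriers in 143B, and of 100 or more -1.01 for ion carriers in 143B and -0.14 for SLC25 in HOS. The causes were not tested.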

Other observations

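Transport proteins outside the solute carrier family gave a comparison at the level of lists, described by medians and without a test. The 6 vacuolar proton pump subunits with a mean of 50 or more had medians of 1.08 for the 143B shift and -1.14 for the HOS shift. Each held 1 peak. In 143B their shifts ran from -2.01 to 2.29, with 4 above 0 (background 49.9%) and 2 below. The 14 genes listed as P-type ATPases had medians of -0.46 and -0.45, and the 8 ABC transporters -0.21 and 0.29. The mitochondrial outer membrane channels VDAC1, VDAC2 and VDAC3, through which SLC25 substrates pass, had HOS shifts of -1.44 (-1.58 to -1.31), -1.42 (-1.56 to -1.28) and -1.45 (-1.86 to -1.06), beside -1.29 for the phosphate carrier SLC25A3. In 143B they differed from it, at -0.04, 0.03 and 0.92 beside -1.11 for SLC25A3. BSG (basigin), the membrane partner of the lactate carrier SLC16A1, had 278 against 292 counts in 143B and 566 against 562 in HOS, with shifts of -0.43 (-0.67 to -0.19) and -0.36 (-0.53 to -0.19), beside -0.03 and -0.71 for SLC16A1.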
